A study of Mus musculus with 24 samples.

Results

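Transcripts of 10 genes that mark the mesenchymal cells of the liver were followed through RNA sequencing libraries of mouse intrahepatic cholangiocytes, the epithelial cells that line the bile ducts inside the liver. The genes were Acta2, Des, Lrat, Pdgfrb, Reln, Dcn, Lum, Cygb, Thy1 and Cdh11, a list of names drawn up with earlier results of these data known, out of 49315 genes in each count table, and all 10 passed the filter on low counts. The 24 libraries fall into 8 groups of 3: male and female mice, each as wild type (WT), WT given secretin, dnTGFB and dnTGFB given secretin. In dnTGFB mice a dominant-negative form of the type II TGF-β receptor is expressed; they model primary biliary cholangitis, an immune disease of the small bile ducts; as background, this transgene is driven by the CD4 promoter and so acts in T cells. Secretin, the hormone that makes bile duct cells secrete bicarbonate, came from an implanted pump for 8 weeks, the daily dose being 4 µg per kg. Untreated WT mice were 32 weeks old and those given secretin 40 weeks old, so that age and secretin cannot be told apart where these are compared; the age of untreated dnTGFB mice is not stated in the labels. Cells of 6 to 8 mice per group were pooled after capture by antibody on magnetic beads, and the RNA of a pool was sequenced 3 times. In 12 of the 24 libraries the genotype field goes against the title, and groups follow the title. By the labels each group is 1 pool, and every p-value below then covers the spread among repeat libraries of 1 pool and not that among mice. Some libraries of the same group differed widely in content, as given below. Whether those came from the same pool was not tested.

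Hepatic stellate cells lie between hepatocytes and the sinusoidal endothelium, store vitamin A as retinyl esters and, on injury, can turn into contractile, collagen-making myofibroblasts. Portal fibroblasts surround the bile ducts and are a separate source of such myofibroblasts. A cholangiocyte preparation from liver can hold RNA of both. In bulk RNA, fewer cells of a type and less RNA per cell cannot be told apart.

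Levels are given in CPM, counts scaled to a common library size with TMM-scaled totals, and libraries are listed in the order 1, 2, 3 of their labels. Marker sums, Ddx3y and Xist are instead in CPM of the library total, without TMM. Library totals ran from 1429218 (male dnTGFB library 3) to 104003184 counts (female WT secretin library 2). Of the 10 cholangiocyte markers none was at 0 throughout, and their summed level ran from 95.1 to 6060 CPM; among males, WT libraries had 1387 to 3550 CPM, WT secretin 2668 to 2710, dnTGFB 496 to 708 and dnTGFB secretin 5962 to 6060. For the fits below, 6 libraries were set aside as standing apart from their group. The libraries labelled female WT secretin 2 and 3 and female dnTGFB 1 and 2 held 54035 to 62067 CPM of 10 heart muscle markers, against 414 to 2728 in the other 8 female libraries, with all 10 markers above every one of those 8. Their level of the Y-linked Ddx3y was 46.8 to 64.3 CPM, against 1.36 to 6.02 in the remaining 8. Male dnTGFB library 3 held 16226 CPM of heart muscle markers and 6242 CPM of 9 neuronal markers, against at most 975 and 436 in the other males. Male WT library 1 was closer to male dnTGFB library 2 (chi-square per gene 7.30 after thinning to equal depth) than to its nearest WT library (40.0). The male WT secretin libraries held 34.0 to 42.4 CPM of Xist, the X-inactivation transcript, against 0.206 to 5.74 in the other males. In females, WT library 2 lay nearest to dnTGFB secretin library 1 (1.16) and WT secretin library 1 nearest to dnTGFB secretin library 3 (1.43), where 1 is sampling noise. Female WT library 2 and dnTGFB secretin library 1 held 1875 and 1847 CPM of squamous epithelium markers, against at most 120 in the other females. Their placenta markers summed to 504 and 507 CPM, against at most 33.6. Cholangiocyte markers summed to 605 and 626 CPM there, against 3080 to 5365 in the rest of their groups. Both libraries stayed in the fits without the 6. The part of these differences in the results was not tested; each result is given with all libraries and, where it changed, without the 6 that stood apart.

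Per kilobase of exon, the medians over the 12 male libraries were ordered Dcn 322, Cygb 47.8, Acta2 46.4, Lum 35.1, Des 19.7, Pdgfrb 9.70, Thy1 9.15, Lrat 7.02, Reln 3.19 and Cdh11 0.411 CPM per kb. Decorin, the small proteoglycan that binds collagen fibrils, was thus the most abundant of the 10 transcripts by this measure and cadherin-11, an adhesion molecule of fibroblasts, the least. The ranges of neighbours in this order overlapped except for Dcn, whose lowest male value of 106 CPM per kb lay above the highest of Cygb (84.7). In females the medians were Dcn 313, Acta2 49.7, Cygb 42.6, Lum 37.4, Des 30.9, Pdgfrb 14.0, Lrat 10.7, Thy1 6.28, Reln 2.77 and Cdh11 0.392 CPM per kb. All 10 genes were counted in every library, with the lowest count, 9, for Cdh11 in female WT library 2. Lrat, Reln, Des and Cygb overlap antisense genes, and strand use in the counting was not given in the sources used here.

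**Figure D1:**
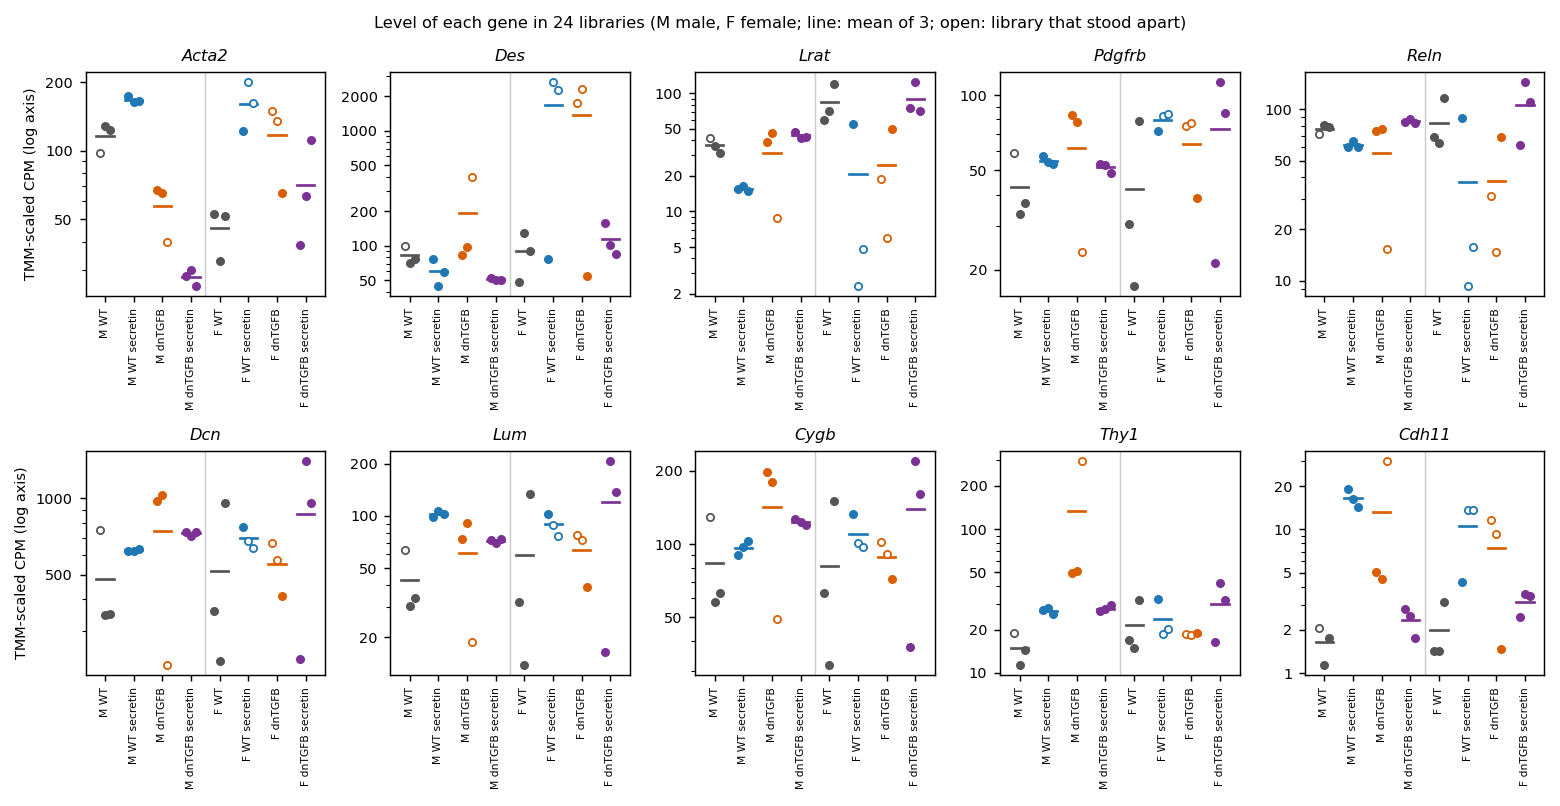
Level of each of the 10 genes in each library, in TMM-scaled CPM on log axes that differ between panels. Filled points are libraries, open points the 6 libraries that stood apart, and lines the mean of 3. Male Acta2 falls into separate bands by group, from 25.6 to 29.9 CPM for dnTGFB secretin up to 165 to 173 CPM in WT secretin, while Des in females reaches 1743 CPM or more only in open points.

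Acta2 encodes α-smooth muscle actin, the contractile actin of vascular smooth muscle and of activated stellate cells. In male WT it measured 97.8, 128 and 123.1 CPM, in male WT secretin 173, 165 and 166 CPM. In male dnTGFB it measured 67.3, 65.3 and 39.9 CPM and in male dnTGFB secretin 28.1, 29.9 and 25.6 CPM. On this TMM scale the 4 male groups did not overlap with each other, in the order WT secretin, WT, dnTGFB and dnTGFB secretin. Of 34198 genes counted in males, 20.5% did not overlap in dnTGFB against WT and 26.5% in WT secretin against WT. The share was 26.5% in dnTGFB secretin against dnTGFB and 38.4% in dnTGFB secretin against WT secretin. In CPM of the library total, Acta2 overlapped between dnTGFB (37.15 to 47.6) and dnTGFB secretin (32.1 to 37.25). Acta2 fell by 1.00 ± 0.20 (log2 fold change ± SE, n = 3 libraries per group) in dnTGFB against WT (adjusted p = 0.00801, edgeR quasi-likelihood F test with Benjamini-Hochberg adjustment over all genes, used throughout). In the same comparison 6 of 8 macrophage markers and 1 of 8 endothelial markers fell and 0 of either rose, when 8.46% of all genes fell, with medians of −1.17 and −0.96. Macrophage markers summed to 116 to 141 CPM in dnTGFB and to 235 to 513 CPM in WT, and endothelial markers to 793 to 1931 and 3078 to 5978 CPM. These sums are of the library total, unlike the levels of Acta2. Mitochondrially encoded genes held 54.9% and 54.8% of that total in dnTGFB libraries 1 and 2. They held 42.6% in WT library 1, the lower end of both WT ranges, and 9.70% and 9.72% in WT libraries 2 and 3. The part of these contents in the fall of Acta2 was not tested. It fell by 1.06 ± 0.20 in dnTGFB secretin against dnTGFB (adjusted p = 0.00658) and by 2.59 ± 0.21, a 6.02-fold difference, in dnTGFB secretin against WT secretin (adjusted p = 5.92e-05). In WT secretin against WT the difference was 0.53 ± 0.19, which did not pass (adjusted p = 0.143; DESeq2 0.0252; 0.42 and 5.19e-06 without WT library 1 and dnTGFB library 3). The effect of secretin in dnTGFB differed from that in WT by −1.59 ± 0.28 (interaction, adjusted p = 0.00553). In a fit of only the 2 groups compared, the fall in dnTGFB against WT (adjusted p = 0.170) and that in dnTGFB secretin against dnTGFB (0.0874) did not pass, whereas the fall in dnTGFB secretin against WT secretin passed under every one of its 14 alternatives (adjusted p 5.61e-43 to 0.00130).

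Scaling bore on the other falls. With library totals in place of TMM, the median of all genes moved from −0.05 to 0.75 in dnTGFB secretin against dnTGFB and from 0.01 to −0.44 in dnTGFB against WT. On that scale Acta2 differed by −0.23 (adjusted p = 0.524) and −1.54 (adjusted p = 0.00476) in these comparisons, and by −0.92 in the interaction (adjusted p = 0.110). On it Lrat, Reln, Pdgfrb, Dcn, Lum and Cygb were 0.67 to 1.57 higher in dnTGFB secretin than in dnTGFB (adjusted p 0.00298 to 0.0351), and Des, Thy1 and Cdh11 no longer passed there (0.0560 to 0.0808). Male dnTGFB libraries 1 and 2 held the lowest cholangiocyte marker sums of the males, 496 and 509.9 CPM. Mitochondrially encoded genes made up 54.9% and 54.8% of the counts in these libraries and 11.4% in dnTGFB library 3. That share was 42.6%, 9.70% and 9.72% in WT and 19.4%, 19.3% and 19.3% in WT secretin. In dnTGFB secretin it was 5.47%, 5.29% and 5.64%. The part of these contents in the difference was not tested.

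Lrat encodes lecithin retinol acyltransferase, which makes the retinyl esters that stellate cells store, and is a defining marker of those cells. In male WT it measured 42.1, 36.1 and 31.3 CPM, in WT secretin 15.4, 16.5 and 14.9, in untreated dnTGFB 39.0, 46.4 and 8.79, and in dnTGFB secretin 46.9, 42.1 and 43.0 CPM. The 3 WT secretin libraries lay below all other male libraries except dnTGFB library 3, which rests on a count of 15. Lrat was higher in dnTGFB secretin than in WT secretin by 1.49 ± 0.38 (adjusted p = 0.0270), a call that was lost on leaving out any 1 of these 6 libraries (adjusted p 0.0841 to 0.107) with the difference kept at 1.45 to 1.54. In WT secretin against WT it differed by −1.23 ± 0.38, which did not pass (adjusted p = 0.0853; DESeq2 0.0190; −1.11 and 1.70e-09 without the 2 male libraries that stood apart).

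Reln encodes reelin, a secreted glycoprotein made in the liver by stellate cells. In male WT it measured 71.1, 80.6 and 78.6 CPM, in WT secretin 60.5, 65.0 and 59.9, in untreated dnTGFB 74.5, 76.9 and 15.2, and in dnTGFB secretin 84.6, 87.0 and 82.4 CPM. As for Lrat, the WT secretin libraries were low and dnTGFB library 3 lowest. No male comparison of Reln passed with all libraries (adjusted p 0.286 to 0.718). Without WT library 1 and dnTGFB library 3, Reln was 0.37 lower in WT secretin than in WT (adjusted p = 3.11e-05) and 0.46 higher in dnTGFB secretin than in WT secretin (adjusted p = 2.06e-07).

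Des encodes desmin, the muscle intermediate filament that rodent stellate cells share with muscle. In males it measured 100.2, 71.3 and 77.1 CPM in untreated WT, 76.9, 45.1 and 59.3 in WT secretin, 83.6, 97.6 and 400.3 in untreated dnTGFB, and 52.9, 50.3 and 50.5 in dnTGFB secretin. The value of 400.3 CPM belonged to dnTGFB library 3, where heart muscle markers summed to 16226 CPM. Des fell by 1.90 ± 0.51 in dnTGFB secretin against dnTGFB (adjusted p = 0.0243) and by 0.81 when library 3 was left out (adjusted p = 0.0150). The call was lost on leaving out any 1 of the dnTGFB secretin libraries (adjusted p 0.0822 to 0.0839). In CPM of the library total, Des had 47.6 and 55.5 in dnTGFB libraries 1 and 2, below dnTGFB secretin (62.7 to 65.8). The fall without library 3 thus holds on the TMM scale only.

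The promoters of Acta2, Lrat and Reln are shown, from the members with an entry in the RefSeq promoter table used. Lrat and Reln were low together in male WT secretin and in the 4 female libraries rich in heart muscle markers, where Acta2 was not. In male dnTGFB library 3, Acta2 was the lowest of its group as well. Each line is the 250 bases before the gene start, 5′ to 3′ on the gene's strand, from the GRCm38.p6 assembly. Capitals mark the GC box, GGGCGG, and the MCAT element, CATTCC, each on either strand.
Lrat (chr3:82903975-82904224, minus strand): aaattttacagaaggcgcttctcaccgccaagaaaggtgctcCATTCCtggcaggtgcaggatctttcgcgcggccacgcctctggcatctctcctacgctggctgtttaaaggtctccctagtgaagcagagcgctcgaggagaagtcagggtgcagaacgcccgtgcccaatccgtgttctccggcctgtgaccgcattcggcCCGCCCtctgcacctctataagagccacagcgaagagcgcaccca
Reln (chr5:22344706-22344955, minus strand): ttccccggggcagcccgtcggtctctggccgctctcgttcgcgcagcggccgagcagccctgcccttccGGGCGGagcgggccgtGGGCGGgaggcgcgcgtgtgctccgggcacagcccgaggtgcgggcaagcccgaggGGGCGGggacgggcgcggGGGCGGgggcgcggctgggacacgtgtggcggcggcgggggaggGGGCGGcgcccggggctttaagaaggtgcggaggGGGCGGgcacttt
Acta2 (chr19:34255374-34255623, minus strand): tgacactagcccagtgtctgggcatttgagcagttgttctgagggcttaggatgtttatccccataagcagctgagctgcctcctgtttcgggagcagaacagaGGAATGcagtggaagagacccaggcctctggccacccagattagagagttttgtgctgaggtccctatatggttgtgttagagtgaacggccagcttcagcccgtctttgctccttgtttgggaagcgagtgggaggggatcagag
The Reln window held 6 GC boxes, the Lrat window 1 and the Acta2 window 0, while 32.7% of the 32851 promoter windows of this length held at least 1. The Lrat window held 1 MCAT element starting at −208 from the gene start and the Acta2 window 1 starting at −146, and 12.6% of all windows held this element. GC content was 80.0% for Reln, 59.2% for Lrat and 53.6% for Acta2, against a median of 52.4%, and CpG dinucleotides numbered 37, 18 and 4, against a median of 6. Des, the fourth member matched to the table, had 67.2% GC and 2 GC boxes. A match describes letters and is neither a site nor a cause.

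Dcn and Lum encode decorin and lumican, small leucine-rich proteoglycans of the collagen matrix, and lie 47338 bases apart on chromosome 10 of GRCm38. Dcn measured 749, 347 and 348 CPM in male untreated WT, 622, 618 and 631 in WT secretin, 974, 1035 and 220.4 in untreated dnTGFB, and 738, 712 and 739 in dnTGFB secretin. Lum measured 63.7, 30.1 and 33.4 CPM in male untreated WT, 98.7, 106 and 103 in WT secretin, 74.0, 90.6 and 18.8 in untreated dnTGFB, and 72.4, 70.0 and 73.2 in dnTGFB secretin. In both genes WT library 1 and dnTGFB library 3 lay far from the other libraries of their groups. With all libraries neither gene passed in any male comparison; the difference nearest to passing was Lum in WT secretin against WT, 1.28 ± 0.43 (adjusted p = 0.116; DESeq2 0.0333; library totals 1.58 and 0.00702). Without those 2 libraries Lum was 1.69 ± 0.08 higher and Dcn 0.84 ± 0.03 higher in WT secretin than in WT (adjusted p = 1.38e-14 and 2.92e-16). Lum was then 0.51 lower in dnTGFB secretin than in WT secretin and Dcn 0.23 higher (adjusted p = 4.96e-07 and 2.93e-07).

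Cygb encodes cytoglobin, a stellate cell globin, and Pdgfrb the β receptor for platelet-derived growth factor, which drives stellate cell and fibroblast growth. Cygb measured 129.5, 57.7 and 62.9 CPM in male untreated WT, 89.9, 97.6 and 103 in WT secretin, 197, 180 and 49.2 in untreated dnTGFB, and 127, 124 and 120.2 in dnTGFB secretin. Pdgfrb measured 58.7, 33.3 and 37.1 CPM in male untreated WT, 57.1, 53.9 and 53.3 in WT secretin, 83.0, 77.8 and 23.4 in untreated dnTGFB, and 53.0, 52.6 and 48.7 in dnTGFB secretin. Both followed the pattern of Dcn, with WT library 1 high and dnTGFB library 3 low in their groups. Neither passed in a male comparison with all libraries (adjusted p 0.224 to 0.834 for Cygb and 0.302 to 0.900 for Pdgfrb). Without those 2 libraries, dnTGFB exceeded WT by 1.64 ± 0.07 for Cygb, 1.19 ± 0.08 for Pdgfrb, 1.53 ± 0.04 for Dcn and 1.37 ± 0.09 for Lum (adjusted p at most 2.84e-11). This fit left 2 libraries per group. WT library 1 had been set aside for lying nearer to a dnTGFB library, so the fit is not a separate test of this comparison. In CPM of the library total the gaps were smaller. Pdgfrb had 47.3 and 44.3 in dnTGFB 1 and 2, against 38.0 and 41.9 in WT 2 and 3. In the same order Lum had 42.2 and 51.5 against 34.4 and 37.8. Dcn had 555 and 589 against 396 and 393, and Cygb 112 and 102 against 65.9 and 71.1.

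Thy1 encodes the surface glycoprotein CD90, found on portal fibroblasts and also on T cells and neurons. In males it measured 18.9, 11.4 and 14.4 CPM in untreated WT, 27.2, 28.3 and 25.7 in WT secretin, 49.5, 51.1 and 296.6 in untreated dnTGFB, and 27.0, 27.6 and 29.4 in dnTGFB secretin. On this TMM scale all 3 dnTGFB libraries lay above all other male libraries. In CPM of the library total, dnTGFB libraries 1 and 2 had 28.18 and 29.05. That was below WT secretin (29.07 to 32.18) and dnTGFB secretin (33.5 to 36.9). Thy1 rose by 3.12 ± 0.60 in dnTGFB against WT (adjusted p = 0.00750) and by 1.75 without dnTGFB library 3 (adjusted p = 9.77e-07), whose neuronal markers summed to 6242 CPM with all 9 above every other male library. It fell by 2.21 ± 0.58 in dnTGFB secretin against dnTGFB (adjusted p = 0.0235), by 0.83 without that library (adjusted p = 0.000550), and did not pass on leaving out any 1 of the dnTGFB secretin libraries (adjusted p 0.0780 to 0.0842). T cell markers summed to 27.7 and 35.1 CPM of the library total in dnTGFB libraries 1 and 2. They summed to 23.7 to 40.1 CPM in the other males without dnTGFB library 3, where Cd3d, Cd2 and Cd5 were at 0. Neuronal markers summed to 419 and 394 CPM in dnTGFB libraries 1 and 2 and to 82.4, 135 and 153 CPM in WT. These were 153 to 193 CPM in WT secretin and 364 to 436 CPM in dnTGFB secretin. The part of either content in the differences of Thy1 was not tested.

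Cdh11 had the largest log2 difference between 2 male groups among the 10. It measured 2.06, 1.15 and 1.77 CPM in untreated WT, 19.3, 16.2 and 14.4 in WT secretin, 5.07, 4.54 and 29.9 in untreated dnTGFB, and 2.78, 2.49 and 1.77 in dnTGFB secretin. The WT secretin libraries lay above all other male libraries except dnTGFB library 3. Cdh11 rose by 3.32 ± 0.63, 9.99-fold, in WT secretin against WT (adjusted p = 0.0120) and fell by 2.82 ± 0.61 in dnTGFB secretin against WT secretin (adjusted p = 0.0126). It rose by 2.79 ± 0.65 in dnTGFB against WT (adjusted p = 0.0154) and fell by 2.29 ± 0.63 in dnTGFB secretin against dnTGFB (adjusted p = 0.0272); without dnTGFB library 3 these were 1.52 and −1.02 (adjusted p = 0.000797 and 0.00892). In CPM of the library total, dnTGFB libraries 1 and 2 had 2.89 and 2.58, on counts of 44 and 49. That was within dnTGFB secretin (2.21 to 3.46) and above WT (1.31 to 2.00). The interaction of Cdh11 was −5.61 ± 0.89 (adjusted p = 0.00355) and −4.53 without the 2 libraries that stood apart. Leaving out 1 library ended the call in WT secretin against WT (WT 2, WT 3 or WT secretin 1, adjusted p 0.0504 to 0.0657), in dnTGFB against WT (WT 2 or WT 3, 0.0597 and 0.0700) and, for each dnTGFB secretin library, in both other comparisons (0.0524 to 0.0957). With library totals the fall against WT secretin was 2.69 on the log2 scale and did not pass (adjusted p = 0.0600). Mesothelial markers summed to 135 to 146 CPM in male WT secretin, with 5 of 6 above the other males without dnTGFB library 3 (33.0 to 104 CPM), and to 511 CPM in that library. Hepatocyte markers were also highest in male WT secretin, at 14324.5 to 15030 CPM against 3073 to 12219 CPM in the other males. The part of either in the result was not tested.

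By comparison, the members called in males were 3 of 10 in dnTGFB against WT, where 17% of all genes tested were called. In WT secretin against WT 1 of 10 was called against 6.22% of all genes, and in dnTGFB secretin against dnTGFB 4 of 10 against 22.6%. In dnTGFB secretin against WT secretin 3 of 10 were called against 12.9%, and for the interaction 3 of 10 against 15.6%. With 10 members, these counts are not read as a property of the list. Without WT library 1 and dnTGFB library 3 the counts were 8, 9, 9, 7 and 9 of 10, against 47.4%, 40.5%, 46.6%, 50.9% and 48.9% of all genes. DESeq2 called 4 members in WT secretin against WT, against 7.9% of all genes. In fits of only the groups compared the members called were 0, 6, 0 and 7 in the first 4 comparisons, against 0%, 28.3%, 2.9% and 59.2% of all genes. There Thy1 and Cdh11 did not pass in dnTGFB against WT (adjusted p = 0.140 and 0.167), nor in dnTGFB secretin against dnTGFB (0.139 and 0.142).

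**Figure D2:**
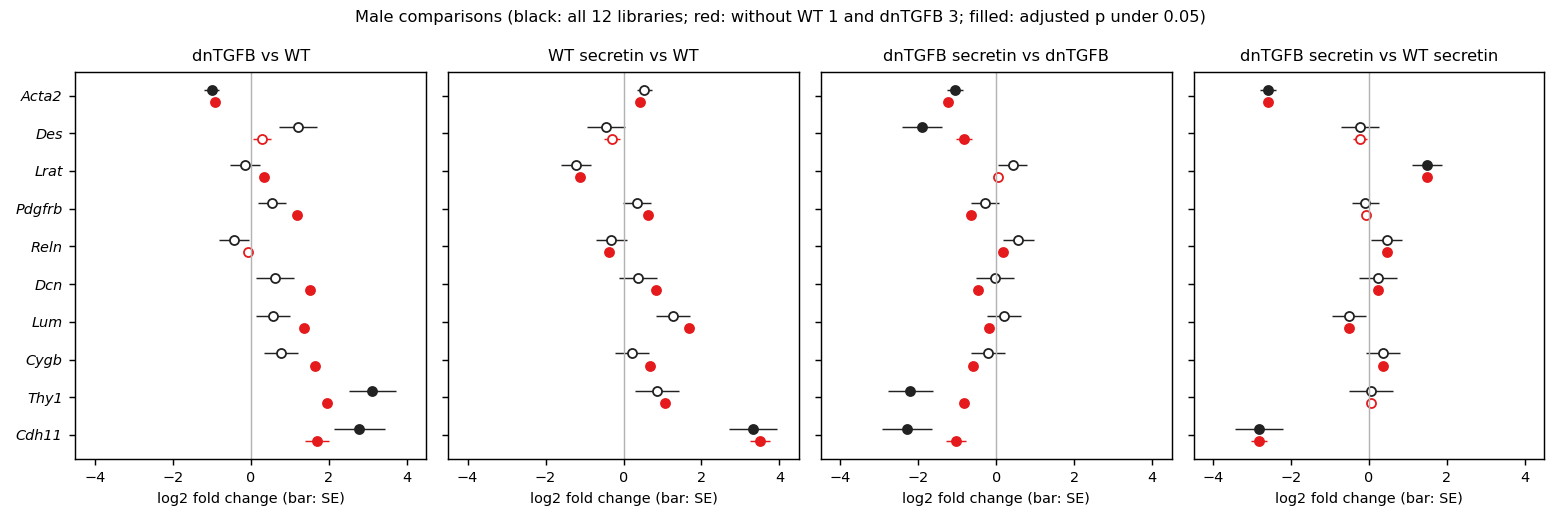
Log2 fold change of each gene in 4 male comparisons, with bars of 1 SE; black points use all 12 libraries, red points leave out WT library 1 and dnTGFB library 3, and filled points have an adjusted p under 0.05. Acta2 in dnTGFB secretin against WT secretin (−2.59) is alike in both fits, while Dcn in dnTGFB against WT moves from 0.63 to 1.53.

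The composition of the mesenchymal signal was read from counts per 1000 Dcn counts within a library, which do not depend on the scaling between libraries. Cygb stayed between 141 and 223 per 1000 in all 24 libraries and Pdgfrb between 65.9 and 135. Lum lay at 85.1 to 96.0 in male untreated WT, 159 to 172 in WT secretin, 76.0 to 87.5 in untreated dnTGFB and 98.2 to 99.0 in dnTGFB secretin, so that WT secretin lay above the other male groups with no overlap. Lrat lay at 56.2 to 104, 23.7 to 26.7, 39.9 to 44.8 and 58.2 to 63.5 in the same order, lowest in WT secretin. Acta2 lay at 131 to 370, 263 to 279, 63.1 to 181 and 34.7 to 42.0, lowest in dnTGFB secretin. Cdh11 lay at 22.8 to 31.0 in WT secretin and at 2.39 to 5.21 in the other male libraries except dnTGFB library 3, which had 136. In that library Des reached 1816 and Thy1 1346 per 1000 Dcn counts, on a Dcn count of 376.

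**Figure D3:**
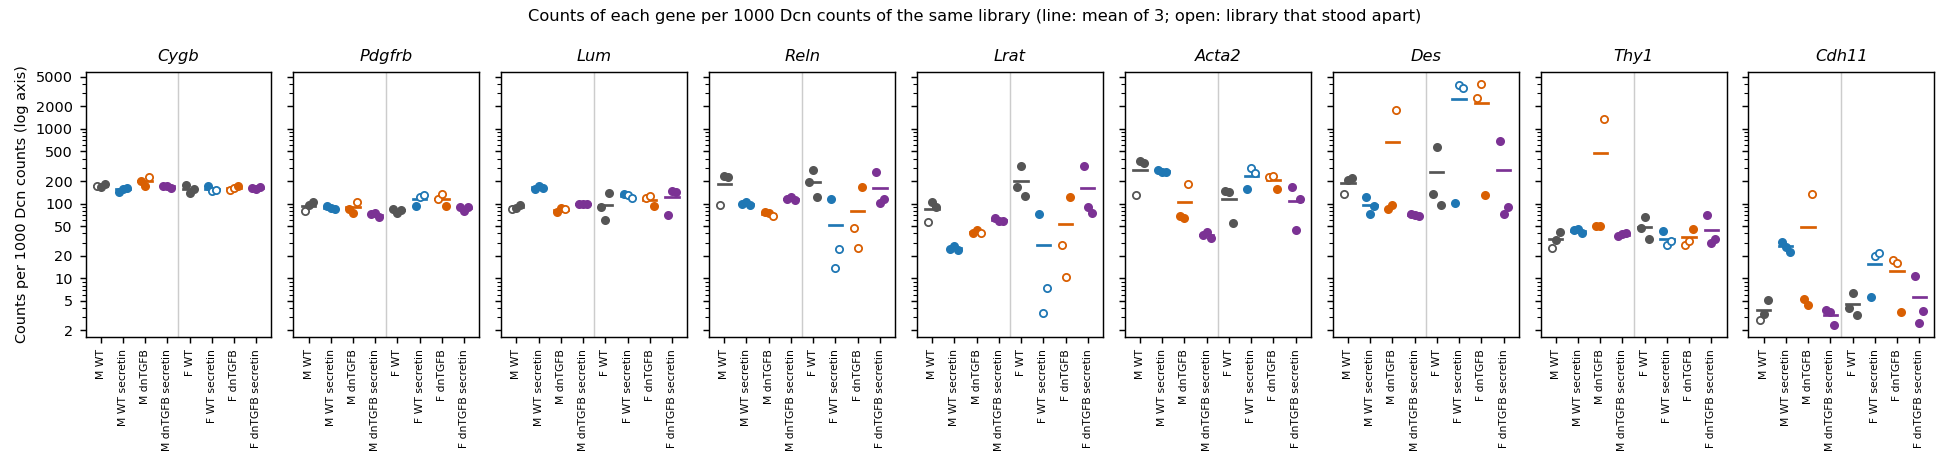
Counts of 9 genes per 1000 Dcn counts of the same library on a shared log axis; points are libraries, open points stood apart, lines are means of 3. Cygb keeps within 141 to 223 in all 24 libraries, whereas Des spans 68.3 to 3991.

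In females Des varied most. It measured 48.1, 130.2 and 90.9 CPM in untreated WT, 77.5, 2650.2 and 2253 in WT secretin, 1743, 2290 and 54.2 in untreated dnTGFB, and 159, 102 and 84.9 in dnTGFB secretin. The 4 values from 1743 to 2650.2 CPM belonged to the 4 libraries rich in heart muscle markers. No female comparison of 2 groups called any member, and none called any gene (0% of 19882 genes). At an unadjusted p under 0.05 edgeR gave 3 members in dnTGFB against WT, 3 in WT secretin against WT, 1 in dnTGFB secretin against dnTGFB and 3 in dnTGFB secretin against WT secretin, and DESeq2 called 1, 3, 0 and 1 at its adjusted p, against 1.99%, 6.83%, 1.3% and 3.74% of all genes. The differences in Des were 3.92, 4.21, −3.56 and −3.85 in these comparisons, and −0.76, −0.23, 1.13 and 0.60 without the 4 libraries, so that all 4 turned direction. The interaction of secretin and genotype called Des (−7.77 ± 1.90, adjusted p = 0.0408), Acta2 (−2.53 ± 0.61, 0.0408) and Cdh11 (−3.62 ± 1.01, 0.0424), 3 of 10 members against 18% of all genes. Without the 4 libraries the interactions were 1.36, −1.21 and 0.08 and none passed (0% of all genes; adjusted p 0.950 to 0.992), where each of the groups WT secretin and dnTGFB was then 1 library, assumed to vary like the other groups. With any 1 library left out other than female WT secretin 1 or dnTGFB 3, none of the 3 passed (adjusted p up to 0.117).

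Lrat and Reln were low in the same 4 female libraries. Lrat measured 59.5, 71.6 and 121 CPM in untreated WT, 55.4, 2.35 and 4.77 in WT secretin, 18.7, 5.95 and 50.3 in untreated dnTGFB, and 74.6, 125 and 70.7 in dnTGFB secretin. Reln measured 68.7, 63.3 and 116 CPM in untreated WT, 88.3, 9.36 and 15.6 in WT secretin, 31.2, 14.6 and 68.4 in untreated dnTGFB, and 61.6, 144 and 109.7 in dnTGFB secretin. In the 4 heart-rich libraries Lrat stayed at or below 18.7 CPM and Reln at or below 31.2 CPM, below all 8 other female libraries. Differences between female groups did not pass for Lrat (−1.75, −2.02, 1.85 and 2.12, adjusted p 0.245 to 0.351) or for Reln (−1.12, −1.14, 1.46 and 1.48, adjusted p 0.291 to 0.428). When female WT secretin library 1 was left out, Lrat was 4.55 lower (log2) in WT secretin than in WT (adjusted p = 0.0237) and Reln 2.71 lower (adjusted p = 0.0242), with both remaining WT secretin libraries rich in heart markers.

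Acta2 measured 53.0, 32.7 and 52.0 CPM in female untreated WT, 122, 200.3 and 162 in WT secretin, 149.95, 135 and 65.6 in untreated dnTGFB, and 38.7, 63.2 and 112 in dnTGFB secretin. WT secretin lay above WT with no overlap, by 1.81 ± 0.44, and did not pass (adjusted p = 0.140, DESeq2 0.00541, and 0.0238 with edgeR without WT secretin library 1). Of 36403 genes counted in females, 16.4% did not overlap in this comparison. The WT secretin library that did not stand apart had 122 CPM, close to the 112 CPM of its nearest library, dnTGFB secretin 3. Cdh11 measured 1.43, 1.44 and 3.13 CPM in untreated WT, 4.30, 13.6 and 13.7 in WT secretin, 11.5, 9.25 and 1.47 in untreated dnTGFB, and 2.47, 3.53 and 3.44 in dnTGFB secretin, highest in the heart-rich libraries.

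Dcn, Lum, Cygb, Pdgfrb and Thy1 ran within the range of the other females in the heart-rich libraries. Dcn was 574 to 677 CPM there, against 227 to 1406 CPM in the other 8 libraries. Within groups it spread widely, with 358, 227 and 961 CPM in WT and 233, 1406 and 957 in dnTGFB secretin. Lum (32.1, 13.9 and 133 CPM in WT; 16.5, 207 and 138 in dnTGFB secretin) and Cygb (62.7, 31.9 and 150.0 CPM; 37.7, 220 and 161) spread the same way. The low libraries, WT 2 and dnTGFB secretin 1, were those nearest to each other across all genes and those with the squamous epithelium and placenta markers given above. Thy1 ran from 15.02 to 41.9 CPM over all female libraries, and none of these 5 genes passed in a female comparison (adjusted p 0.339 to 0.969).

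**Figure D4:**
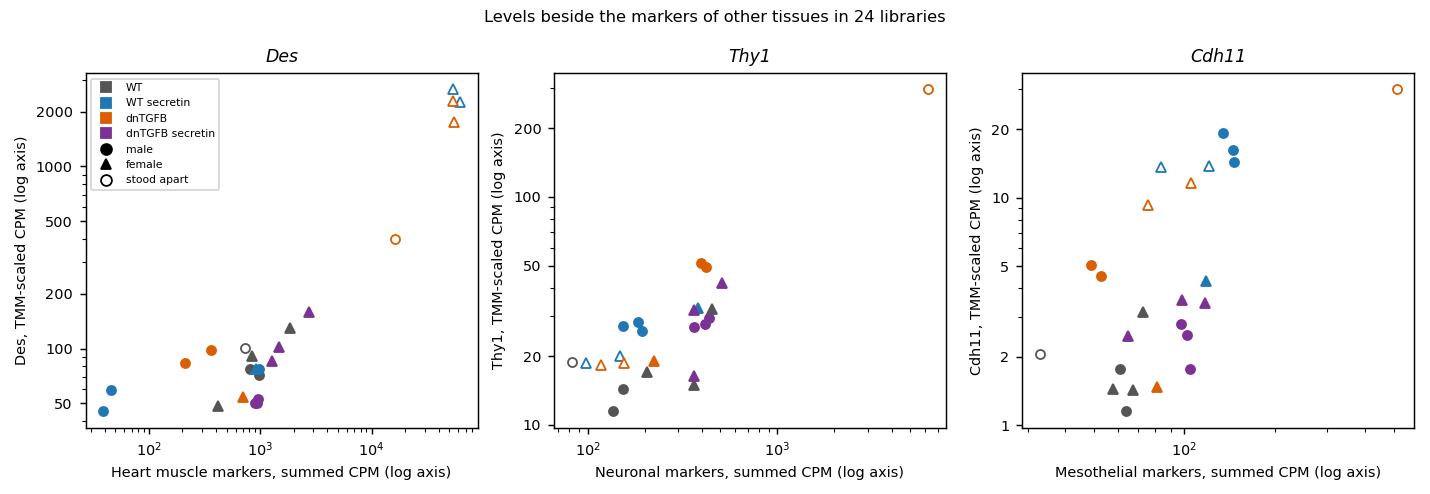
Des against the summed heart muscle markers, Thy1 against the summed neuronal markers and Cdh11 against the summed mesothelial markers, the genes in TMM-scaled CPM and the sums in CPM of the library total, on log axes; circles are male, triangles female, colours the 4 conditions and open symbols the 6 libraries that stood apart. The 4 female libraries with 54035 to 62067 CPM of heart markers hold the 4 highest Des values, and male dnTGFB library 3 the highest Thy1 and Cdh11.

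The sexes differed in dnTGFB against WT for Acta2 (male minus female −2.39 ± 0.49, adjusted p = 0.00536) and Thy1 (3.27 ± 0.72, adjusted p = 0.00859), 2 of 10 members against 6.86% of all genes in the fit of 24 libraries. In dnTGFB secretin against dnTGFB, Thy1 differed by −2.83 ± 0.71 (adjusted p = 0.0263), 1 of 10 members against 7.75%. None of these 3 passed without the 6 libraries that stood apart (−1.42, 2.15 and −1.54; adjusted p = 0.134, 0.0564 and 0.149), when 6.01% and 3.9% of all genes passed in these comparisons. For WT secretin against WT and dnTGFB secretin against WT secretin, the difference between the sexes called 0 members with edgeR, 2 in each at an unadjusted p under 0.05, and 1 and 2 with DESeq2 (0% and 0.198% of all genes with edgeR, 4.88% and 5.47% with DESeq2).

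Across the 24 libraries, which share pools and so are not independent, Dcn and Cygb were ordered almost alike (Spearman rho 0.98, and 0.98 over the 18 libraries that did not stand apart). Dcn and Pdgfrb had a rho of 0.77 (0.91 over 18), Pdgfrb and Lum 0.81 (0.91), Dcn and Thy1 0.61 (0.91), and Lrat and Reln 0.75 (0.50). Acta2 and Lrat ran against each other, with −0.62 (−0.50). Outside the 10, the transcripts ordered most like Dcn and like Cygb were the same 3: Tcf21, Ms4a4d and Steap4 (rho 0.92 to 0.94). Those most like Lum were the fibrillar collagen genes Col5a1, Col3a1 and Col5a2 (0.95, 0.94 and 0.94), those most like Pdgfrb were Cped1, Lhfp and Plod2 (0.95, 0.94 and 0.93). For Reln they were Itgb3, Ppic and Ifitm1 (0.93, 0.91 and 0.89), and for Lrat Mlkl, Colec10 and Cdk1 (0.90, 0.90 and 0.89). Acta2 was ordered most like Lsp1, Tbc1d10c and Map3k7cl (0.94, 0.94 and 0.93), and Thy1 most like Wasf3, Kcnip3 and Clip3 (0.95, 0.94 and 0.93). Des was ordered most like Frmd5, the sarcomere gene Myom1 and Sh3rf2 (0.94, 0.93 and 0.93), and Cdh11 most like Fxyd6, Atp1b2 and Upk1b, a mesothelial marker (0.92, 0.90 and 0.89).

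Related lists were compared with the members in males. Of 10 other portal fibroblast genes, 7 rose and 0 fell in WT secretin against WT (median log2 fold change 1.44; 3.55% of all genes tested rose), among them Clec3b by 2.73 ± 0.28, Col15a1 by 2.15 ± 0.20 and Pi16 by 2.03 ± 0.33 (adjusted p = 0.000606, 0.000302 and 0.00647). Of 10 fibrillar collagen and crosslinking genes 5 rose and 0 fell (median 1.54), led by Col1a1 (2.47 ± 0.50, adjusted p = 0.0162), Col1a2 (2.27) and Col3a1 (2.14). Col1a1 measured 128, 71.1 and 69.1 CPM in WT and 498, 494 and 499 CPM in WT secretin. Of 16 other stellate cell genes 0 rose and only Rgs5 fell (−0.59 ± 0.13, adjusted p = 0.0233; median −0.67; 2.67% of all genes fell), and without the 2 libraries that stood apart 2 rose and 12 fell, when 19.9% of all genes rose and 20.6% fell. Beside these lists, hepatocyte markers summed to 14324.5 to 15030 CPM in WT secretin and to 3073 to 9093 CPM in WT, and 5 of 10 lay above all other male libraries, while 0 of 10 passed in this comparison. Macrophage markers summed to 712 to 737 CPM in WT secretin and to 235 to 513 CPM in WT, and 2 of 8 rose. The part of these cells' RNA in the lists' changes was not tested.

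In dnTGFB secretin against WT secretin the lists went the other way. Of the portal fibroblast genes 5 fell and 0 rose (median −1.65; 7.19% of all genes fell), including Col15a1 (−2.06 ± 0.20, adjusted p = 0.000139) and the elastin gene Eln (−2.004 ± 0.40, adjusted p = 0.00927). Of the collagen list 4 fell and 0 rose (median −1.11), and of 16 stellate cell genes 1 rose, the transcription factor gene Lhx2 (1.07 ± 0.21, adjusted p = 0.00724), and 0 fell (median 0.43; 5.75% of all genes rose). Both comparisons use the WT secretin libraries and so share them. Of 9 smooth muscle genes 5 fell and 0 rose (median −2.16), led by Myh11, the smooth muscle myosin (−3.24 ± 0.39, adjusted p = 0.000567), Actg2 (−3.02) and Lmod1 (−2.88). Myh11 measured 114, 108 and 105 CPM in WT secretin and 11.6, 11.02 and 11.9 CPM in dnTGFB secretin, a wider gap than that of Acta2. Of 5 smooth muscle genes called in dnTGFB secretin against dnTGFB all fell (median of 9 −1.80; 12.4% of all genes fell). Of 7 tested small leucine-rich proteoglycan genes other than Dcn and Lum, 2 fell in dnTGFB secretin against WT secretin, Aspn by 3.65 ± 0.36 and Ogn by 2.37 ± 0.31 (adjusted p = 0.000195 and 0.000886). Among 5 PDGF ligands and receptors other than Pdgfrb, 4 rose in dnTGFB secretin against dnTGFB (10.1% of all genes rose), including the ligands Pdgfc (1.99 ± 0.20), Pdgfa (0.91 ± 0.15) and Pdgfb (0.89 ± 0.12). Of 10 retinoid handling genes tested, 2 fell and 0 rose in dnTGFB secretin against WT secretin, the retinaldehyde dehydrogenase genes Aldh1a2 (−2.42 ± 0.44) and Aldh1a1 (−0.93 ± 0.26), and the median was −0.03. Pericyte genes gave 1 risen (Abcc9, 1.00 ± 0.25) and 2 fallen (Cspg4, −3.25 ± 0.41, and Notch3, −1.70 ± 0.42) of 8 in the same comparison. Hepatocyte markers summed to 4010 to 4039 CPM in dnTGFB secretin and to 14324.5 to 15030 CPM in WT secretin. Mesothelial markers summed to 97.3 to 104 and 135 to 146 CPM in the same order. Cholangiocyte markers were higher in dnTGFB secretin, 5962 to 6060 against 2668 to 2710 CPM. The part of these cells' RNA in the changes was not tested.

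**Figure D5:**
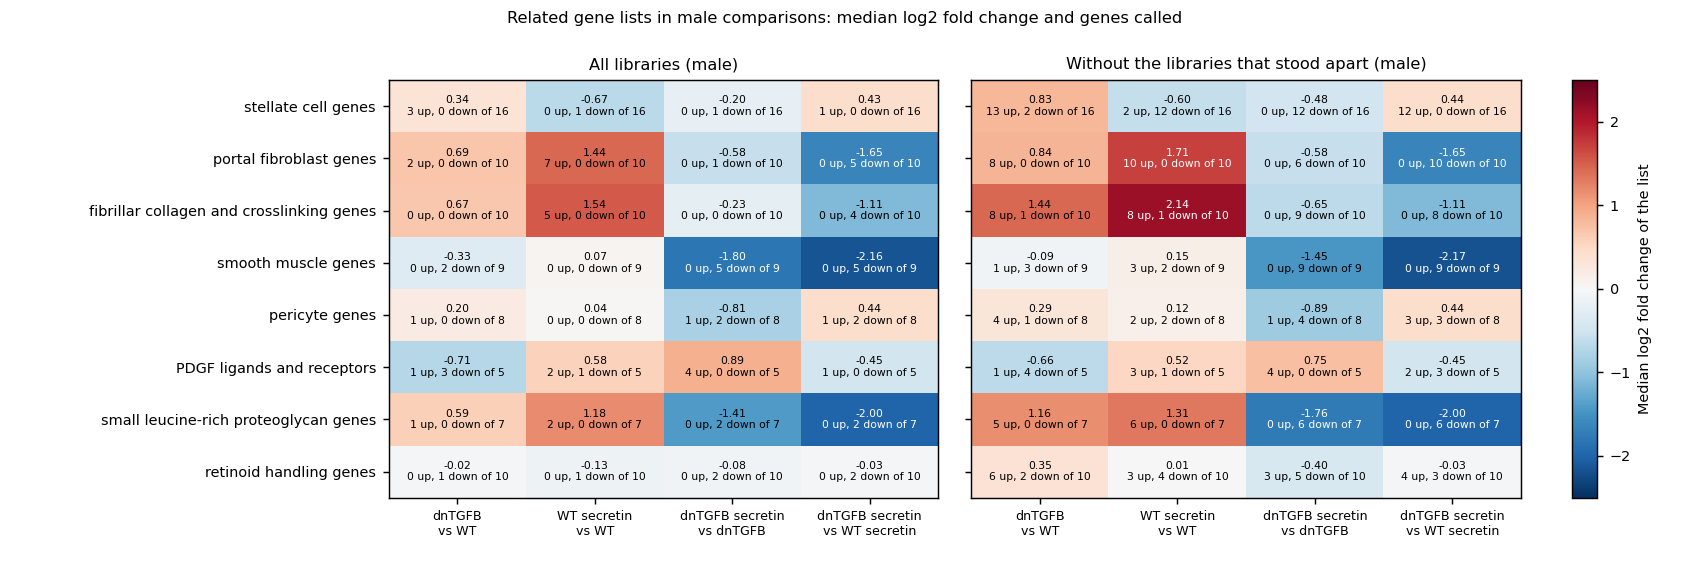
Median log2 fold change of 8 related gene lists in 4 male comparisons, with the number of genes called higher and lower of those tested in each cell, for all libraries and without WT library 1 and dnTGFB library 3. Portal fibroblast and collagen lists stand at 1.44 and 1.54 in WT secretin against WT and at −1.65 and −1.11 in dnTGFB secretin against WT secretin.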

How the data were processed

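Poly(A) RNA of bead-captured cholangiocytes was sequenced, by the labels 3 libraries per pool and 24 in all. The authors deposited raw read counts per gene, whole numbers for 49315 genes in each library; the aligner, the counter and strand use were not given in the sources used here. Symbols and coordinates came from GENCODE M21 (GRCm38), which holds 49056 of the identifiers, and promoters from RefSeq. Groups follow the titles, since the genotype field contradicts them in 12 libraries. Counts were fitted with edgeR 4.0.16 (R 4.3.3): TMM scaling, low-count filter, robust quasi-likelihood F test, Benjamini-Hochberg adjustment over all 18777 male or 19882 female genes, and a call at an adjusted p under 0.05. The 12 libraries of a sex were fitted together, and sex differences in a fit of all 24. SEs are log2 fold changes over the root of F. The method was tested on simulated data in which no library stood apart from its group, so that test does not cover such libraries. DESeq2 1.42.0 and 9 other alternatives were run. Replicates differed by more than sampling noise (chi-square per gene at least 2.54), so none were merged. The members and lists were chosen with earlier results of these data known. Named were the 10 members, up to 3 called genes per related list and comparison with the largest change, and the 3 genes most like each member. Same-numbered libraries did not deviate together in any of 12 pairs of groups, so the numbers were not taken as pairs.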

Additional observations from a re-analysis of the deposited data

Results flagged for a closer look

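In males, the effect of secretin differed between dnTGFB and WT by an interaction test for Acta2 (−1.59, adjusted p = 0.00553), Thy1 (−3.07, adjusted p = 0.0299) and Cdh11 (−5.61, adjusted p = 0.00355), by edgeR on the log2 scale. With 1 library left out, Acta2 and Cdh11 passed in 12 of 12 fits and Thy1 in 4 of 12. Thy1 did not pass without WT 2, WT 3, any WT secretin or any dnTGFB secretin library (adjusted p 0.0616 to 0.0790), and was −1.70 without dnTGFB library 3 (adjusted p = 1.23e-05). In females the same interaction passed for Acta2 (−2.53, adjusted p = 0.0408), Des (−7.77, adjusted p = 0.0408) and Cdh11 (−3.62, adjusted p = 0.0424), none of these passed without the 4 female libraries rich in heart muscle markers, and each passed in 2 of 12 fits with 1 library left out.

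The difference between dnTGFB and WT was not the same in the sexes for Acta2 (male minus female −2.39, adjusted p = 0.00536) and Thy1 (3.27, adjusted p = 0.00859). The difference between dnTGFB secretin and dnTGFB was not the same in the sexes for Thy1 (−2.83, adjusted p = 0.0263), and was −1.49 without male dnTGFB library 3 (adjusted p = 0.0562). With 1 library left out, this last difference passed in 5 of 12 fits (adjusted p up to 0.0723) and the other 2 in 12 of 12. Leaving out 1 library keeps at least 1 of the female dnTGFB libraries 1 and 2, which are rich in heart muscle markers. These held 46.8 and 58.3 CPM of the Y-linked Ddx3y. As given above, none of these differences was called without the 6 libraries that stood apart.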

How the results depend on the processing

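Of 1207 member results under an alternative, 1004 kept their direction and their side of the threshold, 99 no longer passed, 75 newly passed and 29 turned direction. The causes were not tested.

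Without the libraries that stood apart, the members called in males were 8 in dnTGFB against WT, 9 in WT secretin against WT, 9 in dnTGFB secretin against dnTGFB, 7 in dnTGFB secretin against WT secretin and 9 in the interaction. They were 0 in the female interaction and 0 in the sex differences of dnTGFB against WT and of dnTGFB secretin against dnTGFB. The differences that turned direction then were, in males, Lrat in dnTGFB against WT (0.34) and Lum in dnTGFB secretin against dnTGFB (−0.19). In females they were Des (−0.76) and Cdh11 (−0.49) in dnTGFB against WT, Des (−0.23) and Reln (0.07, 0.069) in WT secretin against WT, Acta2 (0.17), Des (1.13) and Cdh11 (1.15) in dnTGFB secretin against dnTGFB, Des (0.60) in dnTGFB secretin against WT secretin, and Des (1.36) and Cdh11 (0.08, 0.077) in the interaction. Another fit left out female WT 2, WT secretin 1 and dnTGFB secretin 1 and 3, each nearest to a library of another group. No member then kept its call in the female interaction. That fit left dnTGFB secretin library 2 alone in its group. Female dnTGFB 2 and 3 also lay nearest to another group and stayed in it.

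In fits of only the groups compared, 0, 6, 0 and 7 members passed in the 4 male comparisons in the order above, when 0%, 28.3%, 2.9% and 59.2% of all genes passed. DESeq2 called 4 members in male WT secretin against WT, 1 in female dnTGFB against WT, 3 in female WT secretin against WT and 1 in female dnTGFB secretin against WT secretin. In the sex differences it called 1 in WT secretin against WT and 2 in dnTGFB secretin against WT secretin.

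With library totals in place of TMM, 2 members passed in male WT secretin against WT, 0 in the female interaction and 0 in the sex difference of dnTGFB secretin against dnTGFB. Pdgfrb turned to −0.01 (−0.0056) in male dnTGFB against WT and to 0.05 (0.046) in dnTGFB secretin against WT secretin. In dnTGFB secretin against dnTGFB, Pdgfrb was 0.67, Dcn 0.96 (0.955) and Cygb 0.75, and in the interaction Pdgfrb was 0.05 (0.051), Dcn 0.27 and Cygb 0.22. The share of all called genes that were higher moved from 50.3% to 19.4% in male dnTGFB against WT, from 57.0% to 75.7% in WT secretin against WT, from 44.8% to 88.9% in dnTGFB secretin against dnTGFB and from 51.9% to 85.4% in the interaction. Without a low-count filter, Dcn was 0.02 (0.025) in male dnTGFB secretin against dnTGFB.

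The same replicate numbers did not pair the libraries (correlations of same-numbered deviations −0.897 to 0.910). With the replicate block, 0 members passed in the female interaction, Dcn was 0.12 in male dnTGFB secretin against dnTGFB, Cdh11 there was −2.10 (edgeR adjusted p = 0.0567), and the male interaction of Thy1 was −2.82 (0.0512).

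With each library left out in turn, the counts of members called ranged from 2 to 7 in male dnTGFB against WT (1244 to 6642 of all genes), 0 to 1 in WT secretin against WT (332 to 1074), 1 to 5 in dnTGFB secretin against dnTGFB (1048 to 7247), 1 to 2 in dnTGFB secretin against WT secretin (911 to 1093) and 2 to 7 in the interaction (1149 to 7324). In females they ranged from 0 to 5 in WT secretin against WT (0 to 5441 of all genes), 0 to 3 in dnTGFB secretin against WT secretin (0 to 5081) and 0 to 5 in the interaction (0 to 8171), the highest each time without WT secretin library 1. In the sex differences they ranged from 0 to 4 for WT secretin against WT (0 to 4519 of all genes), 0 to 1 for dnTGFB secretin against dnTGFB (1 to 3081) and 0 to 3 for dnTGFB secretin against WT secretin (1 to 4340). Lrat ranged from −0.51 to 0.22 in male dnTGFB against WT. In male dnTGFB secretin against dnTGFB, Dcn ranged from −0.45 to 0.30, Lum from −0.19 to 0.59 and Cygb from −0.60 to 0.11.

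Over all genes, the number called ranged with the setting from 0 to 9091 in male dnTGFB against WT (3195 in the reported fit), 332 to 7767 in WT secretin against WT (1168), 506 to 8929 in dnTGFB secretin against dnTGFB (4237), 911 to 10607 in dnTGFB secretin against WT secretin (2429) and 1149 to 9380 in the interaction (2931). The female interaction ranged from 0 to 8171 (3574). Depth limits male dnTGFB library 3, with 1429218 counts.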
